A study of Mus musculus with 38 samples.

Results

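Bone morphogenetic proteins (BMPs) are secreted ligands that bind pairs of type I and type II receptors at the cell surface. The receptors phosphorylate SMAD1, SMAD5 and SMAD9, which move to the nucleus with SMAD4 and raise target genes such as the Id genes, Smad6, Smad7 and Bambi. Secreted antagonists bind the ligands and keep them from the receptors, and the balance of ligand and antagonist patterns the early embryo and its extra-embryonic tissues. This account follows 10 genes of the pathway, chosen by name: the ligands Bmp2, Bmp4 and Bmp7, the type I receptors Bmpr1a and Acvr1, the type II receptor Bmpr2, and the antagonists Nog, Grem1, Chrd and Fst. All 10 were listed in both bulk RNA-seq tables, which hold 35976 and 37108 genes, and in the single-cell table of 20695 genes. The question was how much of the pathway the cells expressed on their own, with and without added BMP4 protein.

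The cells were mouse embryonic fibroblasts (MEFs) of E13.5 embryos from crosses of Oct4-GFP (OG2) mice with 129S4/SvJaeJ mice. Factors were delivered by retrovirus over 2 days before the cells were moved to iCD3 medium, which contains vitamin C, LIF, bFGF, the GSK3 inhibitor CHIR99021 and the DOT1L inhibitor SGC0946. JGES stands for Jdp2, Glis1, Esrrb and Sall4, JGE lacks Sall4, and an added O stands for Oct4. BMP4+ cells received recombinant BMP4 protein at 10 ng/ml and BMP4- cells received none. Bulk RNA-seq covered JGES cells at day 0 and, with and without BMP4, at days 1, 3, 5 and 7, and JGE, JGEO and JGESO cells at day 7 with and without BMP4. It also covered cells given only SALL4-WT or SALL4-delN12 at days 1, 5, 9 and 11, all without BMP4. SALL4-delN12 lacks the 12 residues at the N-terminus through which SALL4 recruits the NuRD corepressor. ATAC-seq, which maps open chromatin, covered MEFs and the same 8 SALL4 samples, and Cut&Tag mapped SALL4 and the active mark H3K27ac in both forms at day 6. Single-cell RNA-seq covered JGES cells at day 7, 1 sample with and 1 without BMP4. Every condition has 1 sample, so differences between conditions have no replicate check and no p-value. The viral vectors carry none of the 10 genes, so their values are those of the cells' own genes.

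Between 12030 and 14621 genes reached 1 FPKM in a bulk library, and the reads behind an FPKM value are unknown. The JGES libraries of day 7 stand in both bulk tables, and every member's second value was 0.975 times (BMP4-) or 0.978 times (BMP4+) the first. The single-cell samples had 11335 BMP4+ and 8685 BMP4- cells with medians of 21205 and 12738 UMIs per cell, and 2 cell barcodes occurred in both. A bulk difference below is a difference of log2(FPKM+1), and a gene counts as higher or lower where it is at least 1 in size, among genes with at least 1 FPKM in either library. Bulk libraries mix cell types, so fewer cells of a type and less RNA per cell cannot be told apart in them.

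Promoter sequence from RefSeq (build GRCm38.p6) was at hand for 6 of the 10 genes, and those of Bmp2, Bmp7, Nog and Fst were not. The 3 shown are the 250 bases before the start of a ligand and of 2 antagonists, 5′ to 3′ on the gene's strand, where the chromatin data below differed between genes. Capitals mark GGCGCC, the GC-rich sequence bound by SMAD1 and SMAD5, which reads the same on both strands.
Bmp4, chr14:46390670-46390919, minus strand: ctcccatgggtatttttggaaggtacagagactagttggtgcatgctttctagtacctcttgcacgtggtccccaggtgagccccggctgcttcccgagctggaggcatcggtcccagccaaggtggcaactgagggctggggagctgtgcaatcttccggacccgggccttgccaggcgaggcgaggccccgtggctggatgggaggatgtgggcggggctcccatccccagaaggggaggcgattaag
Grem1, chr2:113758649-113758898, minus strand: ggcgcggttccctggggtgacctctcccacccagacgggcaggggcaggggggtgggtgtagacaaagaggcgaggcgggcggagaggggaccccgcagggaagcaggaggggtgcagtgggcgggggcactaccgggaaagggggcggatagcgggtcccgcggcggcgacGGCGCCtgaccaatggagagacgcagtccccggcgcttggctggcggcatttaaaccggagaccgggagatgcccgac
Chrd, chr16:20732877-20733126, plus strand: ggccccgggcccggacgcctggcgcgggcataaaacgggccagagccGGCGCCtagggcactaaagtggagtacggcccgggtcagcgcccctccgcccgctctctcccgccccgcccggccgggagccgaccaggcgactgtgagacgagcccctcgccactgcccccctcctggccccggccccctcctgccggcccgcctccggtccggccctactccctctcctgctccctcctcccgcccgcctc
GGCGCC occurred in 4 of the 6 windows (Bmpr1a, Bmpr2, Grem1 and Chrd) and in 9.59% of all 32851 RefSeq promoter windows of the same length. The RefSeq starts of Bmpr1a, Bmpr2 and Acvr1 lie 795, 879 and 329 bases from the GENCODE starts used for the peaks below. For Bmp4, Grem1 and Chrd the gap is 0 to 2 bases. The 6 windows were 63.2 to 85.6% GC, against a median of 52.4% over all windows. ATATT, an AT-rich motif of SALL4, and its reverse complement were in 0 of the 6 windows and in 23.3% of all windows. A match or its absence says only which letters these windows hold.

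Without any added BMP4, the cells with SALL4 alone expressed all 3 ligands, and among these the 2 forms of SALL4 differed most in Bmp2 and Bmp7. Bmp2, a ligand that binds BMPR1A with high affinity, was at 48.1, 57.5, 73.4 and 45.4 FPKM at days 1, 5, 9 and 11 with SALL4-WT. With SALL4-delN12 it was at 1.20, 4.19, 4.40 and 3.90 FPKM, so the 2 sets of libraries did not overlap. The log2 difference of delN12 from WT was −4.48, −3.50, −3.79 and −3.24 at the 4 days. Bmp7, a ligand that also signals through ACVR1, had the opposite order. It was at 3.75, 23.8, 19.2 and 20.4 FPKM with SALL4-WT and at 76.9, 99.0, 128 and 66.0 FPKM with SALL4-delN12. Its log2 differences were 4.04, 2.01, 2.67 and 1.65, and again no library of one form reached the range of the other. Bmp4 was at 33.3, 27.8, 25.9 and 29.0 FPKM with SALL4-WT and at 24.4, 40.8, 42.5 and 63.2 FPKM with SALL4-delN12. It passed the fold at day 11 with a log2 difference of 1.10, and the ranges of the 2 forms overlapped.

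The receptors were at similar levels in both forms. Bmpr1a, the main type I receptor for BMP2 and BMP4, was between 15.0 and 18.8 FPKM in the 8 libraries. Bmpr2, the type II receptor, was at 7.82, 13.4, 12.7 and 15.2 FPKM with SALL4-WT and at 8.19, 11.1, 10.2 and 10.1 FPKM with SALL4-delN12. Acvr1 is a type I receptor also known as ALK2. It was at 8.37 to 9.79 FPKM with SALL4-WT and at 5.54 to 7.96 FPKM with SALL4-delN12, ranges that did not overlap. None of the 3 passed the fold at any of the 4 days.

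Among the antagonists, Grem1 and Fst were lower with SALL4-delN12. Grem1, which encodes Gremlin and binds mainly BMP2 and BMP4, was at 3.22, 27.1, 59.6 and 81.2 FPKM with SALL4-WT. With SALL4-delN12 it was at 1.56, 9.08, 21.3 and 14.7 FPKM, with log2 differences of −0.72, −1.48, −1.44 and −2.39. Fst encodes follistatin, which binds activins and, less tightly, BMPs. It was at 8.29, 10.8, 12.4 and 16.8 FPKM with SALL4-WT and at 2.96, 3.05, 5.0 and 9.77 FPKM with SALL4-delN12, and passed the fold at days 1, 5 and 9. Nog, which encodes Noggin, stayed between 1.12 and 2.91 FPKM in these 8 libraries. Chrd, which encodes Chordin, was between 0.347 and 3.63 FPKM, lower in delN12 at each of the 4 days without passing the fold. With a pseudocount of 0.1 in place of 1, Grem1 and Chrd passed it at day 1. Marker genes of other cell types also differed between the forms. The 6 macrophage markers summed to 22.0 to 67.3 FPKM with SALL4-WT and to 157 to 383 FPKM with SALL4-delN12, with 4 or 5 of the 6 at 1 FPKM or more in each library and none at 0. The 6 placenta markers summed to 110 to 149 and to 550 to 743 FPKM. Not all went with the sum: at days 1, 5, 9 and 11, 5, 6, 6 and 6 of them reached 1 FPKM with SALL4-WT. With SALL4-delN12 4, 6, 5 and 5 did. Primitive endoderm markers summed to 12.1 to 19.4 FPKM with SALL4-WT and to 11.1, 15.4, 60.3 and 171 FPKM at days 1, 5, 9 and 11 with SALL4-delN12. The fibroblast markers, all at 1 FPKM or more, summed to 1211 to 2184 FPKM with SALL4-WT and to 2197 to 2534 FPKM with SALL4-delN12. Their part in these differences was not tested.

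**Figure D1:**
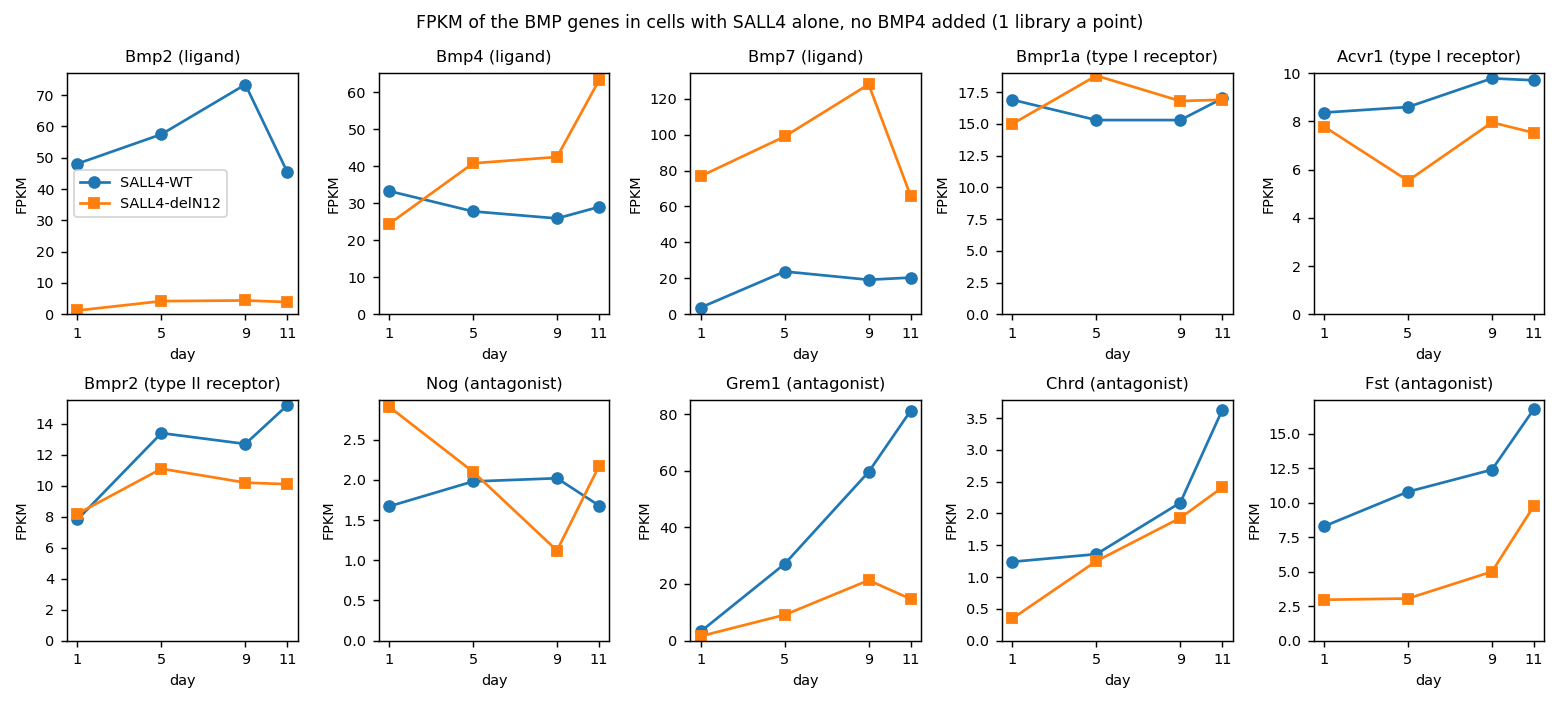
FPKM of each gene (vertical axis, from 0) against day after SALL4-WT (circles) or SALL4-delN12 (squares) was given alone, with 1 library a point and no error bars. Bmp2 and Bmp7 separate the 2 forms at every day in opposite directions, while Bmpr1a stays between 15.0 and 18.8 FPKM in both.

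Read against all genes, the counts of members were as follows. At day 1, 1 member was higher in delN12 and 2 were lower, against 4.18% and 5.63% of the 12794 genes tested. A pseudocount of 0.1 added Grem1 and Chrd to the lower members of that day. At day 5, 1 was higher and 3 were lower, against 4.67% and 5.19% of genes. At day 9 the counts were again 1 and 3, against 6.09% and 5.75%. At day 11, 2 members (Bmp4 and Bmp7) were higher and 2 (Bmp2 and Grem1) lower, against 6.55% and 6.58%. The median log2 difference of the 10 members was −0.30, −0.16, −0.28 and −0.39, and that of all genes tested −0.03, −0.01, 0.03 and 0.01.

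The readout of BMP signaling in these cells was taken as the mean log2(FPKM+1) of Id1, Id2, Id3, Smad6, Smad7 and Bambi. It was 5.87, 6.24, 6.23 and 5.95 with SALL4-WT and 5.05, 5.56, 5.37 and 5.79 with SALL4-delN12. In the JGES libraries with added BMP4 it lay between 6.23 and 6.48, and in those without, days 1 to 7, between 4.55 and 5.0. The SALL4-WT libraries, which had the highest Bmp2 of the 17, thus lay between the JGES groups at days 1 and 11 and level with the lowest BMP4+ library at days 5 and 9. On this mean the SALL4-delN12 libraries, with less Bmp2 and more Bmp7, lay between the JGES groups at all 4 days. The JGES library of day 0 was at 5.29, above SALL4-delN12 at day 1 and below it at days 5, 9 and 11. Id1 was at 374 to 577 FPKM with SALL4-WT and at 214 to 261 FPKM with SALL4-delN12. In JGES cells at days 1 to 7 it was at 233 to 293 FPKM with BMP4 and at 65.0 to 78.1 FPKM without. By Id1 alone, SALL4-WT thus lay above every BMP4+ library of JGES, and the range of SALL4-delN12 overlapped theirs. Whether the ligands made by the cells had a part in the target levels was not tested.

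In JGES cells the ligands were expressed before BMP4 was added. At day 0 Bmp4 was at 82.3 FPKM, its highest value in the 17 libraries, and from day 1 on it was at 29.1, 31.0, 24.8 and 23.8 FPKM in BMP4- and at 29.7, 33.5, 29.8 and 31.4 FPKM in BMP4+ cells. Added BMP4 protein thus went with little difference in the cells' own Bmp4, with log2 differences of 0.03, 0.11, 0.26 and 0.39. Bmp2 went from 4.71 FPKM at day 0 to 6.56, 3.49, 1.59 and 1.18 FPKM in BMP4- cells. In BMP4+ cells it was at 7.65, 3.0, 5.29 and 9.25 FPKM, so the 2 series came apart between days 3 and 5. The log2 difference with BMP4 was 0.19 and −0.17 at days 1 and 3, and 1.28 and 2.24 at days 5 and 7. Bmp7 was at 5.76 FPKM at day 0 and at 8.76, 10.3, 10.1 and 13.7 FPKM in BMP4- cells. In BMP4+ cells it was at 1.62, 4.38, 21.7 and 21.5 FPKM, lower at days 1 and 3 (−1.90 and −1.07) and higher at day 5 (1.03), while the 0.61 of day 7 was under the fold.

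Bmpr1a was between 14.8 and 20 FPKM in all 9 JGES libraries. Bmpr2 was at 14.3 FPKM at day 0, at 10.7, 10.8, 7.94 and 8.69 FPKM in BMP4- and at 12.4, 14.1, 14.4 and 12 FPKM in BMP4+ cells, and from day 1 on the 2 groups did not overlap. Its largest log2 difference was 0.79, at day 5. Acvr1 was at 11 FPKM at day 0, at 5.07, 4.42, 2.66 and 2.83 FPKM in BMP4- and at 5.10, 5.66, 4.38 and 3.86 FPKM in BMP4+ cells. No receptor passed the fold with BMP4 at any day.

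Nog was the first antagonist to differ. It was at 12.4 FPKM in BMP4+ and at 1.01 FPKM in BMP4- cells at day 1, a log2 difference of 2.73. At days 3, 5 and 7 it was at 2.41, 2.18 and 1.83 FPKM in BMP4+ and at 1.44, 1.15 and 2.18 FPKM in BMP4- cells, so the high value stood in 1 library. Grem1 was at 11.7 FPKM at day 0 and at 18.6, 4.67, 2.13 and 1.29 FPKM in BMP4- cells. In BMP4+ cells it was at 10.8, 3.82, 2.95 and 5.13 FPKM, with a log2 difference of 1.42 at day 7. Fst was at 12.8 FPKM at day 0 and at 1.82, 1.81, 2.97 and 1.20 FPKM in BMP4- cells. In BMP4+ cells it was at 2.69, 1.62, 0.977 and 4.91 FPKM, which gave −1.01 at day 5 and 1.43 at day 7. Chrd was at 1.13 FPKM at day 0, at 2.18, 3.38, 4.31 and 4.47 FPKM in BMP4- and at 1.66, 6.08, 5.07 and 5.98 FPKM in BMP4+ cells, and did not pass the fold with BMP4.

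**Figure D2:**
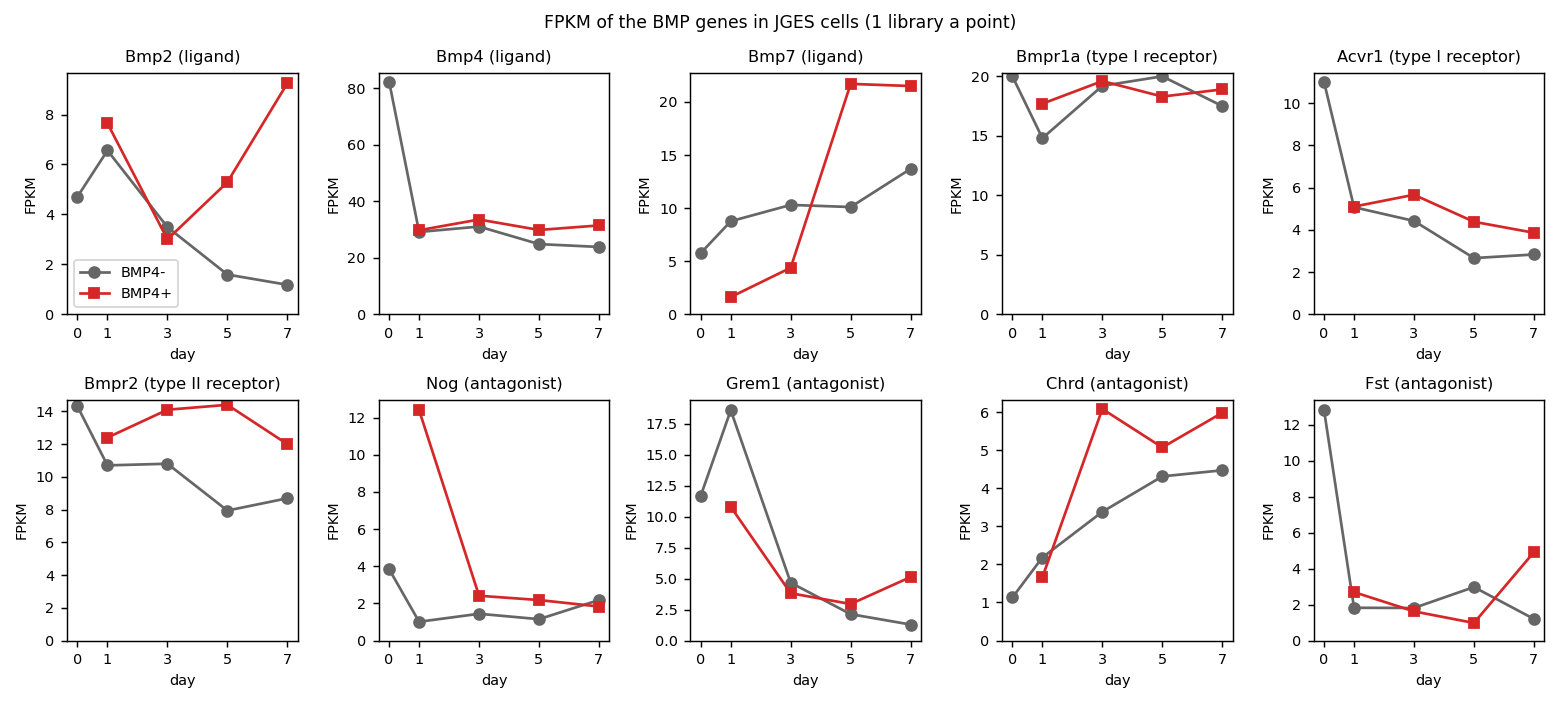
FPKM of each gene (vertical axis, from 0) against day in JGES cells without BMP4 (circles) and with BMP4 (squares), 1 library a point. Nog differs at day 1 (12.4 against 1.01 FPKM), Bmp2 at days 5 and 7, and Bmp4 stays between 23.8 and 33.5 FPKM over both series after day 0.

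At day 1, 1 member was higher with BMP4 and 1 was lower, where 3.75% and 5.72% of the 13582 genes tested were. At day 3 none was higher and 1 was lower, against 6.81% and 8.99% of genes. At day 5, 2 were higher and 1 was lower, against 8.78% and 13.2%. At day 7, 3 (Bmp2, Grem1 and Fst) were higher and none lower, against 10.3% and 13.8%. The members' median log2 difference was 0.11, 0.07, 0.45 and 0.40, and that of all genes −0.02, −0.09, −0.18 and −0.14. With both libraries brought to the same median ratio, the median of all genes moved to −0.02 at day 5 and −0.03 at day 7, and the share of calls that were higher at day 5 went from 40.0% to 50.2%. On that scale Bmp2 was at 1.42 and 2.34 at days 5 and 7, Grem1 at 1.52 and Fst at 1.52 at day 7. The lower values of Bmp7 at day 3 (−0.99) and Fst at day 5 (−0.92) fell short of the fold there, which left no member called at day 3. The pluripotent markers summed to 64.4 to 949 FPKM in BMP4- and to 19.1 to 42.4 FPKM in BMP4+ cells over days 1 to 7, with 0 to 3 of the 6 at 0 in a library, and the fibroblast markers, all at 1 FPKM or more, to 119 to 684 and 517 to 979 FPKM. Their part in the differences was not tested.

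Against day 0, more members were lower than higher. At day 7 without BMP4, Bmp2, Bmp4, Acvr1, Grem1 and Fst were lower (5 of 10, against 10.4% of 15004 genes) with log2 differences of −1.39, −1.75, −1.65, −2.48 and −2.65. Bmp7 and Chrd were higher by 1.12 and 1.36 (2 of 10, against 22.2% of genes). At the same median ratio, a setting added here after seeing the data, where the median of all genes went from 0.26 to 0.09, Bmp7 was at 0.95, short of the fold. At day 7 with BMP4, 4 of 10 were lower (Bmp4, Acvr1, Grem1 and Fst, against 9.47% of genes) and 2 were higher (Bmp7 by 1.73 and Chrd by 1.71, against 17.5%). The comparisons of day 7 with day 0 share the day 0 library. The fibroblast markers summed to 1611 FPKM at day 0 and to 138 and 979 FPKM at day 7 without and with BMP4, and the pluripotent markers to 5.85, 949 and 42.4 FPKM. Their part was not tested.

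At day 7 the BMP4 difference was set side by side in 4 factor sets. Bmp2 was at 4.50 and 2.75 FPKM without and with BMP4 in JGE, at 1.15 and 9.04 in JGES, at 1.95 and 3.12 in JGEO and at 10.1 and 11.9 in JGESO. The difference passed the fold in JGES (2.23) and not in JGE, JGEO and JGESO (−0.55, 0.48 and 0.22). Bmp4 was at 33.0 and 38.6 FPKM in JGE, at 23.2 and 30.7 in JGES, at 23.7 and 25.5 in JGEO and at 15.5 and 35.9 in JGESO. It passed the fold in JGESO, with 1.16. Bmp7 was lower with BMP4 in JGE, from 12.7 to 4.79 FPKM (−1.25), and was at 13.4 and 21.0 in JGES, at 5.13 and 5.72 in JGEO and at 8.86 and 10.8 in JGESO.

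Among antagonists, Nog went from 0.917 FPKM in BMP4- to 6.59 FPKM in BMP4+ cells of JGE (1.99) and between 1.13 and 2.13 FPKM in the other 6 libraries. Grem1 went opposite ways, from 13.4 to 5.04 FPKM in JGE (−1.25) and from 1.25 to 5.02 FPKM in JGES (1.42). It was at 1.22 and 2.29 FPKM in JGEO and at 0.569 and 0.805 FPKM in JGESO. Fst went from 32.9 to 11.7 FPKM in JGE (−1.41) and from 1.17 to 4.80 FPKM in JGES (1.42), and was at 25.5 and 14.1 FPKM in JGEO and at 9.32 and 15.5 FPKM in JGESO. Chrd was between 2.50 and 9.04 FPKM in the 8 libraries and passed the fold with BMP4 in none. Whether the difference with BMP4 itself differs between factor sets could not be tested with 1 library a condition.

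**Figure D3:**
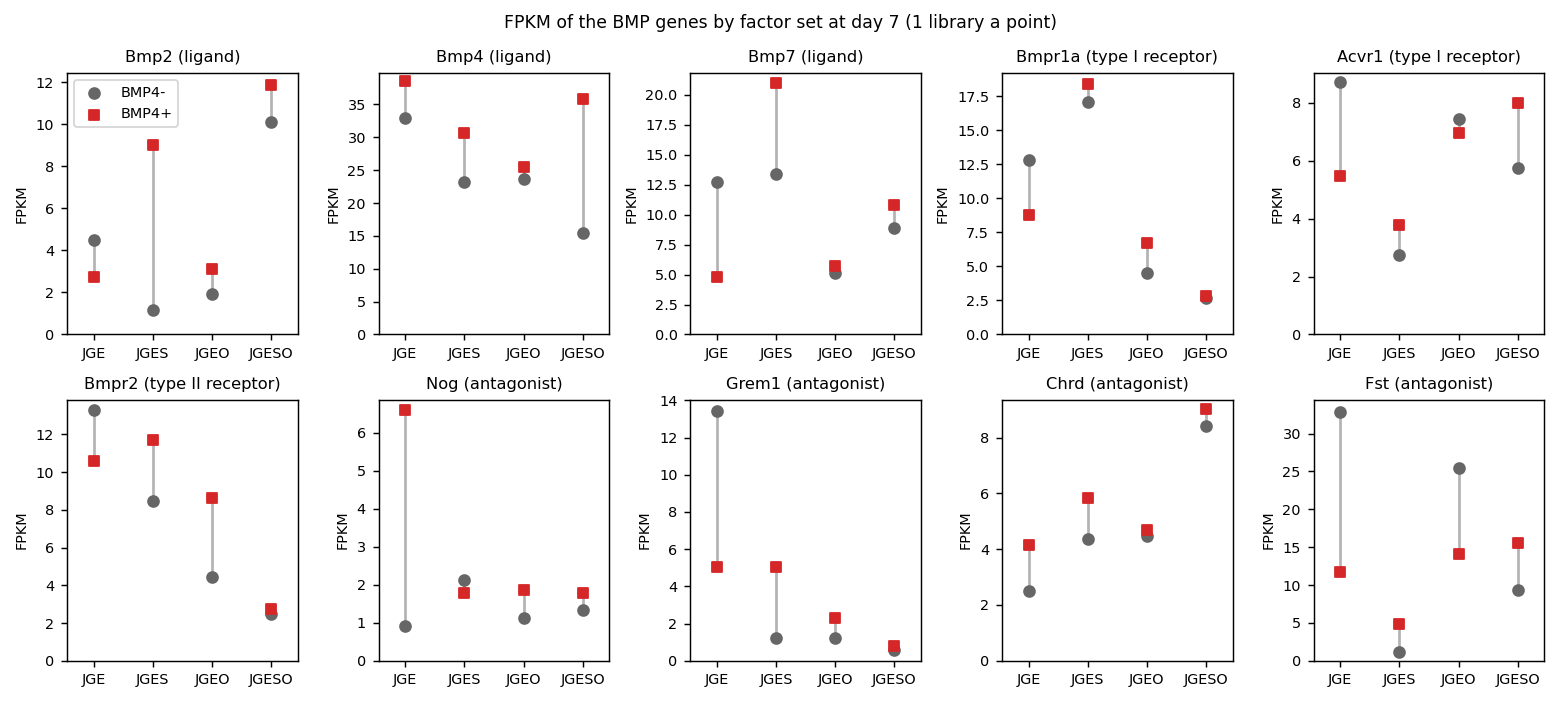
FPKM at day 7 (vertical axis, from 0) without BMP4 (circles) and with BMP4 (squares) in each factor set, 1 library a point, with a line joining the pair. Grem1 and Fst are lower with BMP4 in JGE and higher in JGES, and Bmp2 is at 9.04 FPKM with and 1.15 FPKM without BMP4 in JGES.

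In JGE, 1 member was higher with BMP4 and 3 were lower, against 4.28% and 4.78% of 14714 genes. In JGES 3 were higher and none lower, against 10.2% and 13.7%. In JGEO none passed the fold in either direction, against 2.26% and 1.95%. In JGESO 1 of the 9 members tested was higher and none lower, against 5.29% and 3.52%, and Grem1 was under 1 FPKM in both libraries and not tested. The mean log2(FPKM+1) of the 6 BMP targets was 5.26 and 6.46 without and with BMP4 in JGE, 4.55 and 6.20 in JGES, 5.26 and 5.18 in JGEO, and 5.94 and 6.33 in JGESO.

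Without BMP4, the factor sets differed in their own ligands, receptors and antagonists. JGES differed from JGE by −1.36 in Bmp2, −1.37 in Acvr1, −2.67 in Grem1 and −3.96 in Fst, so 4 of 10 were lower (against 16.9% of 16066 genes) and none higher (20.1%). The JGES library also belongs to the time course and the JGE library does not, and the part of this in the difference was not tested. JGEO was lower than JGE in Bmp7, Bmpr1a, Bmpr2 and Grem1 (−1.16, −1.32, −1.39 and −2.69), which is 4 of 10 against 11.9% of genes, with none higher (10.2%). JGESO had the largest receptor differences. Bmpr1a was at 2.68 FPKM in JGESO and 12.8 FPKM in JGE (−1.90), and Bmpr2 at 2.50 and 13.3 FPKM (−2.03). Fst (−1.71) and Grem1 (−3.20) were lower too, and Bmp4 was at −1.04, or −0.92 at the same median ratio. That makes 5 of 10 lower (4 at the same median ratio) against 30.1% of genes. Bmp2 (1.01) and Chrd (1.43) were higher in JGESO, 2 of 10 against 16.5%. The 3 differences share the JGE library, and the median of all genes was −0.26 for JGESO, −0.15 at the same median ratio. The pluripotent markers summed to 14.1 FPKM in JGE, 925 in JGES, 333 in JGEO and 460 in JGESO without BMP4. Their part was not tested.

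The single-cell samples show in which annotated cells UMIs of these transcripts were counted at day 7. The share of UMIs from background RNA was not estimated, so low values in a type need not come from its own cells. The cell types are those the submitters assigned, and their levels below are UMIs summed over the cells of a type and divided by all UMIs of that type, as CPM, with exact 95% Poisson intervals that cover counting error only. The labels were checked against 6 marker genes each. In the BMP4+ sample endothelial cells had 596 CPM of endothelial markers against 11.1 CPM in the intermediate state, placenta-like cells 2893 CPM of placenta markers against 499 CPM, and cells labelled ParE 1308 CPM of primitive endoderm markers against 38.1 CPM. The ParE cells also had 919 CPM of placenta markers. In the BMP4- sample, endothelial cells had 263 CPM of endothelial markers and 306 CPM of pluripotent markers, and ParE cells 919 CPM of primitive endoderm and 876 CPM of pluripotent markers, so ratios between samples within these types rest on labels whose markers overlap. Pluripotent cells had 7156 CPM of pluripotent markers. The intermediate state differed in content between the samples, with 1126 CPM of fibroblast and 19.7 CPM of pluripotent markers with BMP4 and 216 and 363 CPM without, and the part of this in ratios within it was not tested.

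Bmp2 was highest in BMP4+ endothelial cells, at 65.5 CPM (62.9 to 68.3, 2290 UMIs in 1453 cells). It was at 18.6 CPM (17.5 to 19.7) in BMP4+ ParE cells and 18.1 CPM (17.4 to 18.7) in the intermediate state, which do not differ beyond their intervals, and at 7.32 CPM (5.87 to 9.03) in placenta-like cells. Without BMP4, the 142 ParE cells had 14.8 CPM (9.84 to 21.4) of Bmp2, and its level was 6.65 CPM (5.02 to 8.64) in endothelial cells, 1.77 CPM (1.49 to 2.08) in the intermediate state and 0.404 CPM (0.209 to 0.706) in pluripotent cells. The ratio of BMP4+ to BMP4- was 9.86 in endothelial cells and 10.2 in the intermediate state, and 1.26 in ParE cells, where the intervals overlap. Relative to the median ratio of genes within each type, the log2 ratios were 2.87, 2.92 and −0.16. Of the Bmp2 UMIs of the BMP4+ sample, the intermediate state, with the most cells, gave 45.2%, endothelial cells 35.6% and ParE cells 17.8%. Of all UMIs of that sample they gave 59.8%, 13.0% and 22.8%. In the intermediate state 119 of the 7125 cells held 50% of the Bmp2 UMIs, with up to 85 in a cell, so its level and ratio rest on few cells. In endothelial cells 123 of 1453 cells held 50%.

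Most Bmp4 UMIs lay in the intermediate state, at 71.5 CPM (70.2 to 72.8) with BMP4 and 55.4 CPM (53.8 to 57.0) without. Intermediate cells gave 91.2% of the Bmp4 UMIs with BMP4 and 84.4% without, where they gave 59.8% and 67.5% of all UMIs. Bmp4 had lower levels in the other BMP4+ types. It was at 13.8 CPM in placenta-like, 10.8 CPM in endothelial and 9.26 CPM in ParE cells of the BMP4+ sample. In the BMP4- sample endothelial cells were at 55.6 CPM (50.7 to 60.9), level with the intermediate state, so that endothelial cells had 5.14 times the Bmp4 of their BMP4+ namesakes. As a log2 ratio of BMP4+ to BMP4- this was −2.36, or −2.79 relative to the median ratio of genes within that type. Pluripotent cells were at 12.3 CPM and ParE cells at 8.99 CPM. Bmp7 was at 19.8 CPM (19.1 to 20.5) in the BMP4+ and 12.2 CPM (11.4 to 13.0) in the BMP4- intermediate state and at 8.29 CPM (7.29 to 9.39) in pluripotent cells. Its other values lay between 1.23 and 3.70 CPM.

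Receptor UMIs were found in every type. Bmpr1a had its highest values in placenta-like cells (66.6 CPM, 62.0 to 71.4) and ParE cells (56.2 CPM, 54.3 to 58.1) of the BMP4+ sample and its lowest in pluripotent cells (15.7 CPM, 14.3 to 17.2). Bmpr2 was at 56.1 CPM in the BMP4+ intermediate state and at 6.91 CPM (5.99 to 7.92) in pluripotent cells. Only the BMP4- sample has pluripotent cells, so these contrasts also span the 2 samples. The BMP4- intermediate state had 23.3 CPM (22.3 to 24.4) of Bmpr1a and 18.6 CPM (17.7 to 19.6) of Bmpr2. Acvr1 was lower throughout, between 1.43 CPM in BMP4- endothelial cells and 7.55 CPM in the BMP4+ intermediate state.

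Among the antagonists, Fst and Grem1 were concentrated in 1 type or in few cells. Fst was at 217 CPM (213 to 221) in BMP4+ ParE cells, which gave 84.5% of its UMIs in that sample and 22.8% of all UMIs. In the BMP4- sample ParE cells gave 5.71% of the Fst UMIs (1.53% of all UMIs) and the intermediate state 87.1% (67.5%). It was at 31.7 CPM (24.2 to 40.9) in BMP4- ParE cells, at 13.5 CPM (12.9 to 14.0) in intermediate cells with BMP4 and 11 CPM (10.3 to 11.7) in intermediate cells without, at 13.0 CPM in placenta-like, 3.26 CPM in BMP4+ endothelial and 2.43 CPM in pluripotent cells. In placenta-like cells 3 of 385 cells held 50% of the Fst UMIs, and in BMP4+ endothelial cells 6 of 1453 did, against 346 of 2372 ParE cells. In the intermediate state 115 of 7125 cells with BMP4 and 82 of 6211 without did. Only 3 Fst UMIs were found in the BMP4- endothelial cells (0.356 CPM, 0.0735 to 1.04). Grem1 was at 21.8 CPM (21.1 to 22.5) in the BMP4+ and 2.31 CPM (1.99 to 2.66) in the BMP4- intermediate state and at or below 0.570 CPM in every other type. Its 3509 UMIs in the BMP4+ intermediate state came from 221 of the 7125 cells, and 16 cells held 50% of them, with up to 305 UMIs in a cell. By contrast, 711 cells were needed to reach 50% of the Bmp4 UMIs there. No Grem1 UMI was found in the BMP4- endothelial or ParE cells, which at 3 counts, the limit used here for a count of 0, allows up to 0.356 and 1.59 CPM. The upper ends of the exact 95% interval, drawn as bars in the plot by cell type, are 0.438 and 1.95 CPM.

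Nog was at 8.16 CPM (7.46 to 8.90) in ParE cells and 7.76 CPM (7.34 to 8.21) in the intermediate state with BMP4, values whose intervals overlap. It was at 1.29 CPM in BMP4+ endothelial and 1.26 CPM in placenta-like cells, and the BMP4- intermediate state had 3.68 CPM. Chrd was low in all types, between 0.601 and 3.38 CPM. It was at 3.29 CPM (3.02 to 3.58) and 3.38 CPM (2.99 to 3.80) in the intermediate state with and without BMP4.

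**Figure D4:**
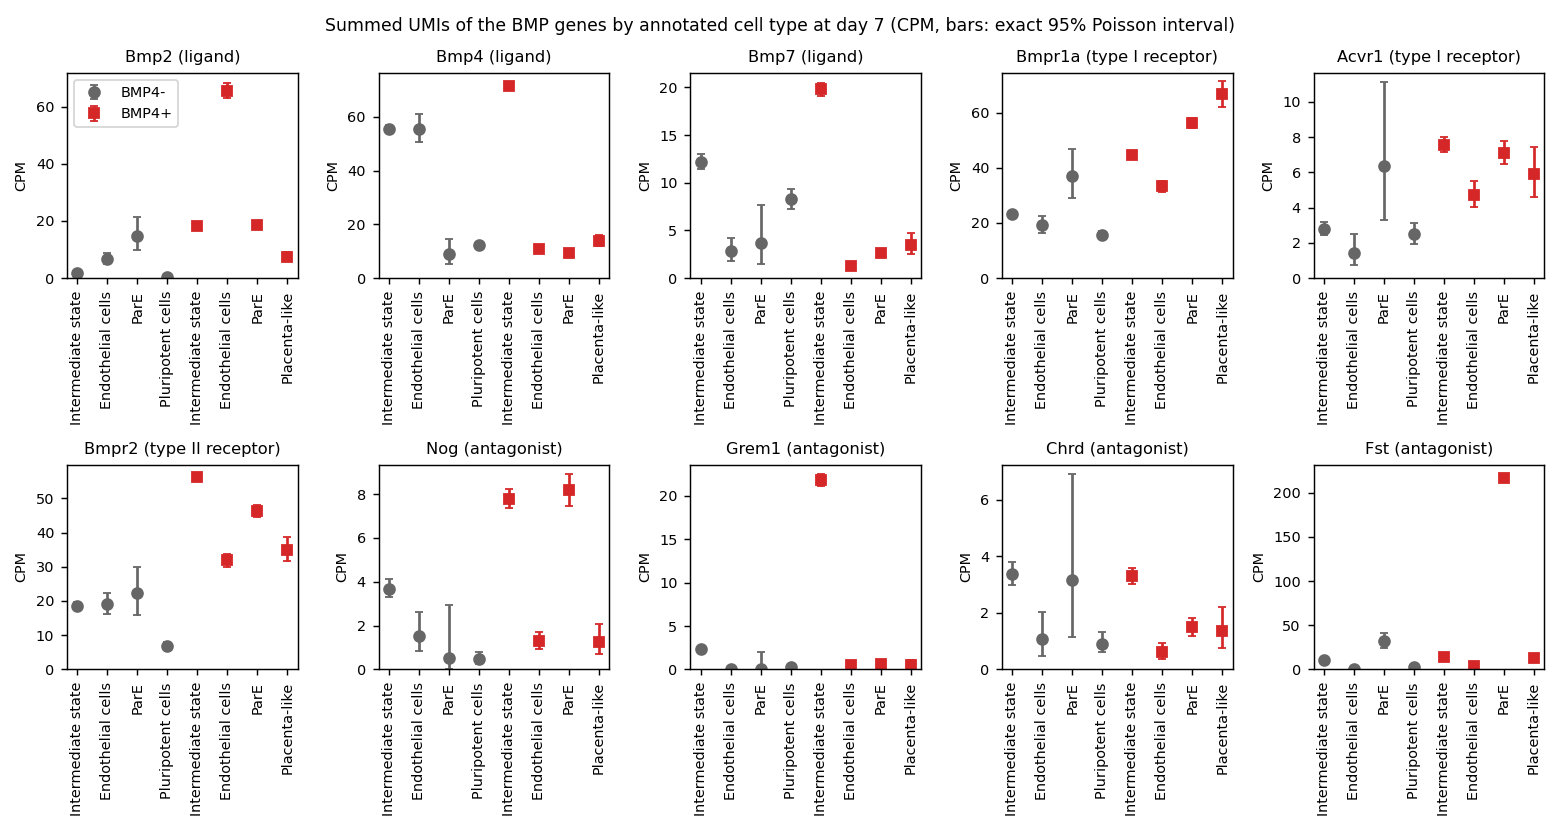
UMIs of each gene summed over the cells of an annotated type, in CPM (vertical axis, from 0), for the BMP4- sample (circles) and the BMP4+ sample (squares), with bars for the exact 95% Poisson interval. Bmp2 peaks in BMP4+ endothelial cells at 65.5 CPM, Fst in BMP4+ ParE cells at 217 CPM, and Bmp4, Bmp7 and Grem1 in the BMP4+ intermediate state.

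Over all cells, the ratio of BMP4+ to BMP4- had a median of 0.53 on the log2 scale over the 13395 genes with at least 1 CPM in either sample. Changes were therefore also taken relative to the median ratio of the 11735 genes with at least 1 CPM in both, 0.52. The bulk ratios set beside these have no pseudocount either. The makeup of the samples differed as well: from BMP4- to BMP4+, ParE cells went from 1.64% to 20.9% of cells, endothelial cells from 5.84% to 12.8%, and pluripotent cells from 21.0% to none. Its part in the ratios over all cells was not tested. Bmp2 was at 23.9 CPM with and 1.97 CPM without BMP4 (log2 ratio 3.60, or 3.08 relative to that median), against 2.98 in bulk. Grem1 was at 13.3 and 1.63 CPM (3.02, or 2.50), against 2.0 in bulk, and Fst at 58.5 and 8.53 CPM (2.78, or 2.26), against 2.03 in bulk. Within the intermediate state the Fst log2 ratio was 0.29, or −0.15 relative to the median ratio there. Within ParE cells it was 2.77, or 2.28 relative to the median ratio of that type. Bmpr2 was at 49.8 and 15.9 CPM (1.65, or 1.13), against 0.46 in bulk. Bmpr1a, Acvr1 and Nog were past the fold on the unscaled ratio (1.13, 1.39 and 1.31) and not relative to the median (0.61, 0.87 and 0.79), against 0.11, 0.45 and −0.26 in bulk, where Nog was the lower with BMP4. Bmp4 had log2 ratios of 0.08 and −0.44, Bmp7 of 0.28 and −0.23 and Chrd of −0.10 and −0.62 on the 2 scales. In bulk these were 0.40, 0.65 and 0.42. In all, 7 members were higher and none lower as deposited, against 29.5% and 8.70% of genes, and 4 higher and none lower relative to the median, against 14.6% and 15.3%.

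Peak lists show the state of the promoters in the cells with SALL4 alone, where a promoter is 2 kb to each side of the GENCODE vM21 start of a gene on mm10. A peak's score rises as the MACS p-value falls, and depends on the depth of the library, so each list is read against its own median. In MEFs all 10 members had an ATAC peak, as did 66.3% of 21866 protein-coding genes. With SALL4-WT 9, 10, 9 and 9 of the members had one at days 1, 5, 9 and 11, against 60.1%, 64.5%, 63.8% and 64.2% of genes. With SALL4-delN12 8, 8, 10 and 9 did, against 58.0%, 60.0%, 61.5% and 62.0%. At a score of at least 100, SALL4-delN12 lost Bmp2, Nog and Grem1 at day 1 and Nog and Chrd at day 5. It also lost Bmp2, Bmp4, Grem1 and Chrd at day 9 and Bmp4 at day 11. SALL4-WT lost Grem1 and Chrd at day 1 and Grem1 at days 5 and 11.

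Bmp2 (start at chr2:133552159, plus strand) had an ATAC peak over its start in all 9 lists. Its highest score was 357 in MEFs, 149, 527, 333 and 523 with SALL4-WT, and 91.9, 102, 76.2 and 188 with SALL4-delN12, where the median scores of the lists were 96.8 to 119 and 98.5 to 113. Scores were in general higher with SALL4-WT at days 5 and 11: at days 1, 5, 9 and 11, 3 of 9, 10 of 10, 6 of 10 and 9 of 10 members with a peak in either list scored higher with SALL4-WT, against 41.7%, 93.3%, 51.7% and 86.6% of genes with such a peak. Bmp2, Nog and Chrd did so at each day. Bmp7 (start at chr2:172940321, minus strand) had a peak over its start in every list as well, with scores of 286 to 815 with SALL4-WT and 401 to 664 with SALL4-delN12, which overlap. Bmp4 (start at chr14:46390669, minus strand) had no peak in 4 of the 9 lists and scores of 61.9 to 107 in the others. These were the lowest of the ligands except with SALL4-delN12 at day 9, where Bmp4 scored 78.1 and Bmp2 76.2. Where Bmp4 had a peak at days 5 to 11, the peak took in 115 to 124 bases of the Bmp4 sequence shown above. Bmpr1a, Bmpr2 and Acvr1 had peaks in all 9 lists, and Nog scored 160 to 270 with SALL4-WT and 67.7 to 146 with SALL4-delN12.

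SALL4 itself had a Cut&Tag peak at 7 members with SALL4-WT and at 5 with SALL4-delN12, against 51.6% and 38.6% of genes. These counts depend on the limits set: they were 3 and 3 at a score of at least 100, 4 and 3 with 500 bases to each side, and 9 and 8 with 5 kb. The SALL4-WT peaks were at Bmp2, Bmp7, Bmpr1a, Bmpr2, Nog, Chrd and Fst. The one at Bmp2 began 1905 bases downstream of the start, at chr2:133554064-133555267, and had a score of 123. The SALL4-delN12 peaks were at Bmp2, Bmpr1a, Bmpr2, Grem1 and Fst, with the one at Bmp2 over the start at a score of 52.4. Bmp7, Nog and Chrd, with scores of 77.0, 57.3 and 55.6 with SALL4-WT, had no peak with SALL4-delN12. Bmp4 and Acvr1 had none with either form.

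H3K27ac had a peak at 8 members with SALL4-WT and at 9 with SALL4-delN12, against 47.7% and 56.9% of genes. At a score of at least 100, SALL4-WT lost Acvr1, Chrd and Fst (scores of 57.2, 54.6 and 54.4) and SALL4-delN12 lost none. The lists hold 19841 and 45599 peaks with median scores of 111 and 138, so the delN12 list is the longer for all genes. Grem1 (start at chr2:113758646, minus strand) had no H3K27ac peak with SALL4-WT and one of score 348 with SALL4-delN12, which took in all 250 bases of the Grem1 sequence shown above. Grem1 FPKM had the opposite order, at 27.1 and 59.6 with SALL4-WT and 9.08 and 21.3 with SALL4-delN12 at the neighboring days 5 and 9. Bmp4 likewise had a peak with SALL4-delN12 (score 230), 1463 to 3842 bases downstream of the start and outside the sequence shown. Nog had one with SALL4-WT (score 182) and none with SALL4-delN12. At Bmp2 the scores were 106 and 147 with SALL4-WT and SALL4-delN12, and at Bmp7 126 and 126, which for Bmp7 is above the median of the SALL4-WT list and below that of the SALL4-delN12 list. The Chrd sequence shown above lay within the H3K27ac peak of both forms.

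**Figure D5:**
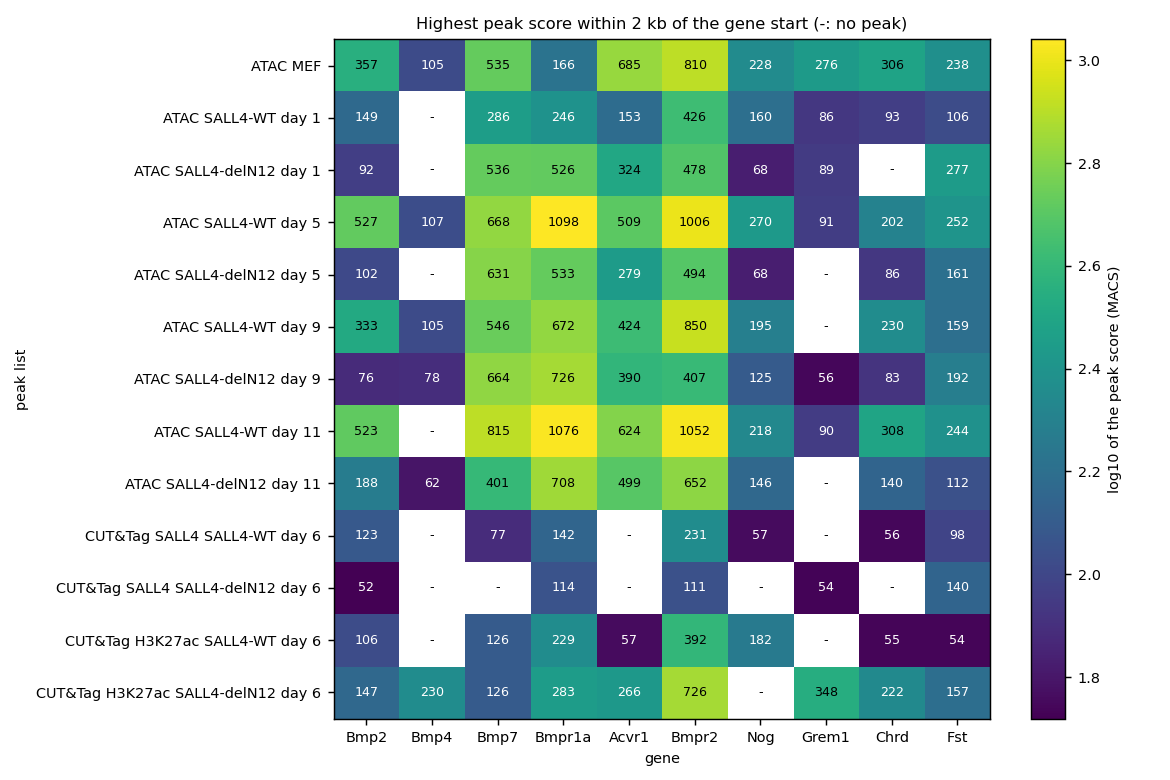
Highest peak score within 2 kb of each gene's start (columns) in each peak list (rows), with color giving log10 of the score and a dash where the list has no peak. Bmp2, Nog and Chrd score higher with SALL4-WT than SALL4-delN12 at each ATAC day, as do all 10 members at day 5 and 9 at day 11, and Bmp4 has no peak in 4 of the 9 ATAC lists.

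The rest of the pathway was followed by 4 lists and the 6 targets. Of the 11 other ligands, Bmp8a stood out in JGES cells, at 3.20, 9.79, 24.1 and 29.2 FPKM with BMP4 and 0.270, 2.16, 0.524 and 0.317 FPKM without, so that at day 7 it was near Bmp4 in FPKM. In single cells placenta-like cells had 25.1 CPM of Bmp8a, and the intermediate state had 19.4 CPM with BMP4 and 0.120 CPM without. The 2 ligands were not near each other there: all BMP4+ cells together had 13.5 CPM of Bmp8a and 46.9 CPM of Bmp4. At day 7 in JGES, 3 of the 6 other ligands tested were higher with BMP4 (Bmp5, Bmp8a and Bmp8b), where 10.3% of all genes were higher and 13.8% lower. In single cells Bmp5 went the other way, at 2.35 CPM in the BMP4- and 1.03 CPM in the BMP4+ sample (log2 ratio −1.19, or −1.71 relative to the median). Of the 6 other receptors and co-receptors tested, 1 was higher, the endothelial type I receptor Acvrl1 (9.17 against 1.71 FPKM), and 2 were lower, the activin receptor Acvr2b (2.77 against 9.78 FPKM) and the co-receptor Rgma (2.13 against 15.7 FPKM). Among the other antagonists, Cer1 and Fstl3 were higher and Sost lower. Sost encodes sclerostin, known mainly as an inhibitor of WNT, and was at 147, 89.8, 31.0 and 24.5 FPKM in BMP4- and at 34.5, 7.82, 4.31 and 3.68 FPKM in BMP4+ cells. Smad9, one of the SMADs that BMP receptors phosphorylate, was the 1 of 4 SMADs past the fold with BMP4 at each of the 4 days in JGES, at 1.84, 5.15, 4.13 and 2.82 FPKM in BMP4+ and at 0, 0.113, 0.775 and 0.750 FPKM in BMP4- cells over days 1 to 7. Of the 6 targets, Id1, Id3, Smad6, Smad7 and Bambi were higher at day 7.

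In cells with SALL4 alone, the antagonists Fstl3 and Bmper were lower with SALL4-delN12 at each of the 4 days, and no other antagonist was higher at any day. Fstl3, a relative of Fst, was at 8.29, 11.8, 14.8 and 11.7 FPKM with SALL4-WT and at 3.56, 3.07, 2.89 and 4.68 FPKM with SALL4-delN12. Bmper was at 4.86, 3.48, 11 and 6.88 FPKM with SALL4-WT and at 0.593, 0.315, 0.848 and 0.740 FPKM with SALL4-delN12. Of the 6 BMP targets, Id1, Id2, Id3 and Smad6 were lower with SALL4-delN12 at days 1, 5 and 9, Bambi was higher at day 1, and none passed the fold at day 11. Of all genes tested at days 1, 5, 9 and 11, 5.63%, 5.19%, 5.75% and 6.58% were lower. The shares that were higher were 4.18%, 4.67%, 6.09% and 6.55%. Among other ligands, Bmp8b was higher with SALL4-delN12 at days 5 and 9 (3.50 against 0.404 and 2.53 against 0.747 FPKM), Gdf7 at day 9 (7.49 against 0.406 FPKM) and Bmp6 at day 11 (6.74 against 1.77 FPKM), and none was lower. Among other receptors and co-receptors, the co-receptor Rgmb was lower at day 9 (2.91 against 8.14 FPKM). Among the 4 SMADs, Smad1 was lower at day 1 and none passed the fold at the other days. The numbers tested at days 1, 5, 9 and 11 were 7, 7, 7 and 8 of 12 other antagonists. For other ligands they were 1, 5, 5 and 6 of 11, and for other receptors and co-receptors 5, 5, 6 and 5 of 8.

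The genes most like each ligand across the 17 libraries of the first table were named by Pearson's r of log2(FPKM+1) among 12351 genes with at least 5 FPKM in a library. These libraries share cells, days and treatments, so r describes them and carries no p-value. For Bmp2 they were Slc6a14 (0.935), Prg4 (0.916), Nrg1 (0.891), Areg (0.891) and Jak1 (0.882). For Bmp4 they were Myl9 (0.875), Cnn1 (0.849), Fgfr2 (0.843), Acta1 (0.808) and Lmod1 (0.805), of which Myl9, Cnn1, Acta1 and Lmod1 encode proteins of the contractile apparatus. For Bmp7 they were Col23a1 (0.905), Abhd4 (0.866), Wbscr25 (0.863), Pgbd5 (0.862) and Tmem9 (0.861).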

How the data were processed

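The authors trimmed bulk RNA-seq reads with Trim Galore 0.6.4, mapped them to mm10 with HISAT2 2.2.1 and deposited FPKM per gene from StringTie 2.2.1. Single-cell reads were aligned by the authors with STARsolo (GENCODE vM21), and the deposited table gives the UMI count of each gene in each filtered cell, named by cell type. The 10749 cell columns that match no sample were not used here. Chromatin reads were mapped with Bowtie2 2.4.5 and filtered with SAMtools 1.16.1, and the authors deposited MACS 1.4.2 peak lists with a score per peak, none below 50, after merging Cut&Tag replicates.

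Members and gene lists were chosen with earlier results of these data known. All 10 members are named, and genes of the other lists where they passed the fold with BMP4 at day 7 of JGES or between the SALL4 forms. 1 item is not reported here. Differences used a pseudocount of 1. Intervals are exact 95% Poisson intervals, and a count of 0 was given a limit of 3 counts. For thinning, each cell was drawn down to 4000 UMIs. Doublets were not called, and leaving out the 6% of cells with the most UMIs was an alternative. Promoters were 2 kb to each side of the outermost start of a protein-coding transcript. Scripts ran in Python 3.11.15 with numpy 2.4.6, pandas 2.3.3 and scipy 1.17.1 and were tested on simulated data with 200 changed genes.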

Additional observations from a re-analysis of the deposited data

Results flagged for a closer look

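In 7 cases a member differed in opposite directions under the same contrast, and none of these differences of differences was tested, since each condition has 1 library. Grem1 was lower with BMP4 in JGE and higher in JGES, and the log2 differences lay 2.67 apart. Fst did the same, 2.83 apart. Within JGES, Bmp7 was lower with BMP4 at days 1 and 3 and higher at day 5, which lay 2.93 and 2.10 apart. Fst in JGES was lower with BMP4 at day 5 and higher at day 7, 2.43 apart. In single cells Bmp4 was lower with BMP4 in endothelial cells and higher in the intermediate state, 2.73 apart on the log2 scale, and Bmp7 did so by 1.91. Relative to the median ratio of all genes within a type, Bmp4 was at −2.79 in endothelial cells and −0.07 in the intermediate state, so the opposite sign there depends on the scale, and Bmp7 was at −1.64 and 0.26.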

How the results depend on the processing

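No member's called change turned direction under any alternative. Of the called changes of single members, 7 fell short of the fold under scaling to the same median ratio, which for the comparisons with day 0 and between factor sets was chosen after seeing the data. Scaling left 0 members past the fold at day 3 in JGES and 4 over all single cells. A pseudocount of 0.1 raised the count at day 1 of delN12 against WT to 5, by adding Grem1 and Chrd. Of members with a promoter peak, a score of at least 100 left 5 and 6 in the ATAC lists of SALL4-delN12 at days 1 and 9, 3 and 3 in the SALL4 lists of WT and delN12, and 5 in the H3K27ac list of SALL4-WT. With 500 bases to each side the SALL4 lists gave 4 and 3, and with 5 kb the delN12 list gave 8. Of the levels by cell type, 31 of 80 moved outside their Poisson interval when cells were thinned to 4000 UMIs, 12 as a mean over cells and 9 without the cells with the most UMIs. The cell type with the highest level was kept by 8 to 10 of the 10 members in each sample. No paired analysis was possible by replicate number because each condition and day has 1 sample. A fit with day as the block, which could be made for JGES and for the SALL4 forms and would treat days as replicates, was not run. Depth limits Grem1, Chrd and Nog most: several cell types held under 20 of their UMIs.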
